A study of Mus musculus with 2 samples.

Results

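Basophils were identified in single-cell RNA sequencing of lungs from mice with 4T1 tumors, a murine triple negative mammary carcinoma line that seeds the lung. A cell was counted as a basophil when it held at least 3 unique molecular identifiers (UMIs, each of which counts 1 captured transcript) of Mcpt8, Cd200r3, Ms4a2 and Cyp11a1 combined, with at least 2 of these 4 genes detected and no UMI of Cd3e or Cd79a. Cells also needed 500 to 5000 detected genes, under 7.5% mitochondrial UMIs and under 5% of UMIs from the neutrophil genes S100a8 and S100a9. This rule found 57 basophils among 16995 cells that passed the gene and mitochondrial limits. All mice were female BALB/cJ, 12 weeks old, and carried a tumor of 14 days grown from 100000 injected cells. The saline group received intravenous saline and the NP group received intravenous PLG nanoparticles, made of poly(lactide-co-glycolide) without a drug cargo, every 3 days from the day after inoculation. Each group was 1 library of lungs pooled from 4 mice by the sample labels (the study's methods give another number), so that no comparison between groups had a replicate and no test was made. Every interval given is at 95% and allows for counting error alone, since cells from the same library are not replicates of a treatment. Intervals of ratios of pooled UMIs also treat the UMIs of a cell as independent, so they leave out the spread between cells. Tumor-free lungs were not analysed here.

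Basophils are rare granulocytes that arise in the bone marrow under the transcription factor GATA2 and the cytokine IL-3. They carry the high-affinity IgE receptor FcεRI, and crosslinking of this receptor releases histamine, proteases and lipid mediators from the cell and induces IL-4 and IL-13. In the lung, basophils are also known as a source of IL-6, CSF1, oncostatin M and the chemokines CCL3 and CCL4, which act on macrophages and other myeloid cells.

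The genes used to find the cells encode a granule protease (Mcpt8), an activating surface receptor (Cd200r3), the β chain of FcεRI (Ms4a2) and a steroid-synthesis enzyme (Cyp11a1). On GRCm38 (mm10), Mcpt8 (ENSMUSG00000022157) lies at chr14:56082166-56085273, Cd200r3 at chr16:44943678-44981380, Ms4a2 at chr19:11615523-11623719, and Cyp11a1 at chr9:58006411-58027023. The promoters of Mcpt8, Cd200r3 and Ms4a2 are shown with that of Prss34 (chr17:25298394-25300165), a second basophil protease, because these genes mark the cells and Mcpt8 and Prss34 spread widely among them. Each window runs from 250 bases before to 50 bases after the start site in RefSeq (GRCm38.p6), at chr14:56085148-56085447 on the minus strand, chr17:25298144-25298443 on the plus strand, chr16:44943428-44943727 on the plus strand and chr19:11623670-11623969 on the minus strand. Capitals mark AGATAA or TGATAA on either strand, letters that GATA factors are known to bind.
Mcpt8: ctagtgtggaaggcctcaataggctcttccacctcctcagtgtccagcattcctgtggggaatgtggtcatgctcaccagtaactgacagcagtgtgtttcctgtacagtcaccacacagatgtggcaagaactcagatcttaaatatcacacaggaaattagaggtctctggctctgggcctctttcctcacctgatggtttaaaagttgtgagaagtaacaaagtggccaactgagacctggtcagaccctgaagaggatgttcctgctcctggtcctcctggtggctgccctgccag
Prss34: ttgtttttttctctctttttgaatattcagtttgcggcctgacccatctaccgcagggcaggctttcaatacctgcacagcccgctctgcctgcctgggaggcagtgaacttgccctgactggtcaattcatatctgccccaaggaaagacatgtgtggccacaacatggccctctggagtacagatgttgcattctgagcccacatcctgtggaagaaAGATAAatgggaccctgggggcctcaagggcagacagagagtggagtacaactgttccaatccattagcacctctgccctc
Cd200r3: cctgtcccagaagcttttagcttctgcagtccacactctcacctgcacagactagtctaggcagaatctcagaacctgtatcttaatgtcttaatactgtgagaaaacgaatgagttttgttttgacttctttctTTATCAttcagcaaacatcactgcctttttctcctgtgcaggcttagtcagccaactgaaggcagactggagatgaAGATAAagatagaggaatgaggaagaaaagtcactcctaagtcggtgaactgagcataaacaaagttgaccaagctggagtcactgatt
Ms4a2: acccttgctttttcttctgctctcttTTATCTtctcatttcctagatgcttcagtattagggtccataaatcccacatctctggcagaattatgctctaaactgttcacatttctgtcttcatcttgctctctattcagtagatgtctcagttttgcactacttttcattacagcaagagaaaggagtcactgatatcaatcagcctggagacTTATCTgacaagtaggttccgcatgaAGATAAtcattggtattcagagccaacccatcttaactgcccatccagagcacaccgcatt
The Ms4a2 window held 3 matches, at positions -224, -37 and -11 from the start site. Cd200r3 had 2 matches at -115 and -39, Prss34 had 1 at -31, and the Mcpt8 window had 0. Of 32851 promoter windows of this length, 18.6% held at least 1 match and 3.26% held 2 or more. Of 12 basophil genes looked up, 8 had a match in at least 1 window, among them Fcer1a, Cpa3, Il13 and Il6. Cyp11a1, Il4 and Gata2 had more than 1 window each, so this count by gene cannot be set against the shares by window. A match is a description of the letters only.

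The NP library held 38 basophils among 8333 cells (0.456%, exact Clopper-Pearson interval 0.323% to 0.625%). The saline library held 19 among 8662 cells (0.219%, 0.132% to 0.342%). The share was 2.08 times as high in the NP library (1.17 to 3.82), a log2 ratio of 1.06 (0.23 to 1.93). The S100-rich class, mostly neutrophils, held 5404 saline and 3067 NP cells with 5% or more of their UMIs from S100a8 and S100a9. This class and the cells under the 5% limit together did not take in every cell of a library. Of the cells under this limit, the saline library had 19 basophils in 3113 (0.610%, 0.368% to 0.951%) and the NP library had 38 in 5190 (0.732%, 0.519% to 1.00%). Their log2 ratio was then 0.26, with an interval from -0.568 to 1.139 that includes 0. A difference within the cells under the S100 limit was thus not detectable at this number of cells.

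**Figure D1:**
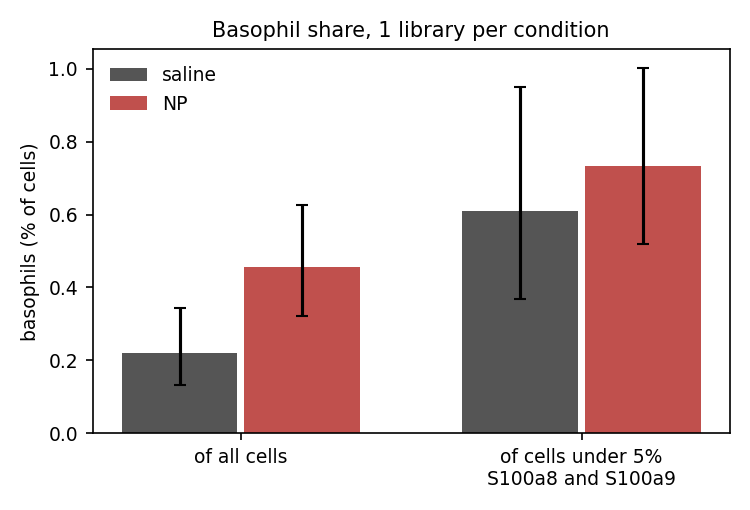
Basophils as a percentage of all cells and of cells under 5% S100a8 and S100a9, in the saline library (19 basophils) and the NP library (38 basophils). Bars are shares of 1 library each and whiskers are exact 95% counting intervals, which overlap.

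Depth was alike in both groups, with a median of 7268 UMIs and 2000 genes per saline basophil and 6380.5 UMIs and 1768.5 genes per NP basophil. The libraries held 91168129 UMIs (saline) and 90081747 UMIs (NP), of which the basophils held 141830 and 276502. All 4 genes of the rule were detected in 16 saline and 35 NP basophils. At least 10 UMIs of these genes were present in 18 saline and 36 NP basophils, so few cells lay near the limit. Just inside it, 1 NP basophil had 3 UMIs and 1 had 4 or 5. Just outside it, 2 saline cells had 3 or more UMIs of a single gene, no cell had 2 UMIs over 2 genes, and 11 saline and 13 NP cells had 1 UMI. Of the cells that passed the gene and mitochondrial limits, 21 barcodes occurred in both libraries, and 0 of these were basophils.

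Other limits left out 9 barcodes that met the basophil genes. Of these, 3 saline barcodes over 5000 genes and 2 NP barcodes with Cd3e change values given below. Those over the S100 limit also change values, given below for an S100 limit of 10%. A saline barcode with 5791 detected genes held 984 Mcpt8, 1356 Prss34 and 42 Mki67 UMIs. An NP barcode of 16384 UMIs was left out for 1 UMI of Cd3e, although it held 569 Mcpt8, 682 Prss34 and 44 Cpa3 UMIs. The remaining ones were 2 saline barcodes with over 5000 genes and few basophil UMIs, 2 saline and 1 NP barcode over the S100 limit, 1 saline barcode over the mitochondrial limit and 1 further NP barcode with 1 Cd3e UMI.

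In all, 6 basophils stood apart from the rest in depth or in markers of other cells, and values are given with and without them where they matter. In the saline library, cell 3 (cells are numbered by depth within a library) held 89 S100a8 and 185 S100a9 UMIs, 2.46% of its total, while cells 18 and 19 held only 1095 and 940 UMIs. NP cell 1 was the deepest (26580 UMIs, 4990 genes). It met the rule with 1 Mcpt8 and 2 Cyp11a1 UMIs and carried Prtn3 (27 UMIs), Mpo (20) and Flt3 (4), which are known from myeloid progenitors, and 7 UMIs of Kit. NP cell 2 carried 365 Gzmb, 60 Mcpt8, 45 Cpa3 and 15 Kit UMIs. NP cell 3 carried 160 UMIs of endothelial markers, including 39 of Cldn5, and was the 1 basophil called a doublet. Doublet calling did not work in the saline library (1 of 8662 cells called), so doublets among saline basophils could have been missed. Without these cells, 16 saline and 35 NP basophils remained. They had held 9.29% of saline and 20.1% of NP basophil UMIs. They include the 3 deepest NP cells but not the deepest saline cell, cell 1, which held 13.8% of saline basophil UMIs against 9.61% for NP cell 1, so values without the 6 cells are trimmed unevenly.

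The identity genes that the rule did not name were concentrated in the same cells. Fcer1a, the IgE-binding α chain of FcεRI, had 95 saline and 142 NP UMIs in basophils, which was 86.4% and 82.6% of its UMIs in all cells of each library. For Cpa3, a carboxypeptidase of basophil and mast cell granules, these shares were 90.7% and 82.0%. Il4 (76.4% and 85.3%) and Il13 (82.6% and 95.4%), both type 2 cytokines, were likewise held mainly by the 57 cells. Il6 was held to 45.6% and 69.0%. Over both libraries, 225 of 2574 measured genes (at least 20 UMIs in basophils) were 4-fold or more above the other cells under the S100 limit, a background of 8.74%. Since the cells were picked by such genes, this is a description. The 10 highest ratios outside the rule were those of Fcer1a, Prss34, Cpa3, Il4, Il13, Il6, Ccl3, Grm6, Csrp3 and Aqp9. Grm6, a glutamate receptor gene, had 25 saline and 52 NP UMIs, and Csrp3, a muscle LIM protein gene, had 87 and 127. Of their UMIs in all cells, 71.4% and 89.7% (Grm6) and 63.0% and 89.4% (Csrp3) were in basophils.

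Gata2 was detected in 19 of 19 saline and 36 of 38 NP basophils, with 230 and 405 UMIs. Basophils held 28.0% and 15.5% of its UMIs in all cells, and 56.0% of saline and 59.0% of NP endothelial cells also held a UMI. Beside it, Gata1 had only 5 and 9 UMIs, and the IL-3 receptor chain Il3ra had 8 and 16. After each cell was thinned to 1000 UMIs, Fcer1a was detected in 9 of 18 saline basophils (interval 26.0% to 74.0%) and in 18 of 38 NP basophils (31.0% to 64.2%). A total of 1 saline basophil was too shallow for thinning. Without thinning these shares were 89.5% and 94.7%. Among B cells, which lack the gene, 0 of 484 saline and 0 of 637 NP cells held an Fcer1a UMI, with exact intervals up to 0.759% and 0.577%. Their median depth was 4405 UMIs (saline) and 4508 UMIs (NP).

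Markers of mast cells and eosinophils were at 0 or scarce. Of the mast cell genes, Mcpt4, Tpsb2, Tpsab1, Mrgprb1 and Mrgprb2 had 0 UMIs, and Kit had 0 saline and 22 NP UMIs, all in NP cells 1 and 2. The list's most abundant gene was Hs3st1, a heparan sulfate sulfotransferase gene, with 11 and 26 UMIs. Of the eosinophil genes, Prg2, Prg3 and Ear1 had 0 UMIs, Epx had 1 and Siglecf had 1 saline and 6 NP UMIs, and the list's most abundant gene was Alox15 (28 and 42 UMIs). Neutrophil S100a8 and S100a9 made up 0.299% of saline and 0.0669% of NP basophil UMIs. In barcodes under 50 UMIs, which hold mostly free RNA, they made up 19.5% and 11.5%. If all of these UMIs were free RNA, it would account for at most 1.53% of saline basophil UMIs (0.588% without cell 3) and 0.584% of NP basophil UMIs.

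**Figure D2:**
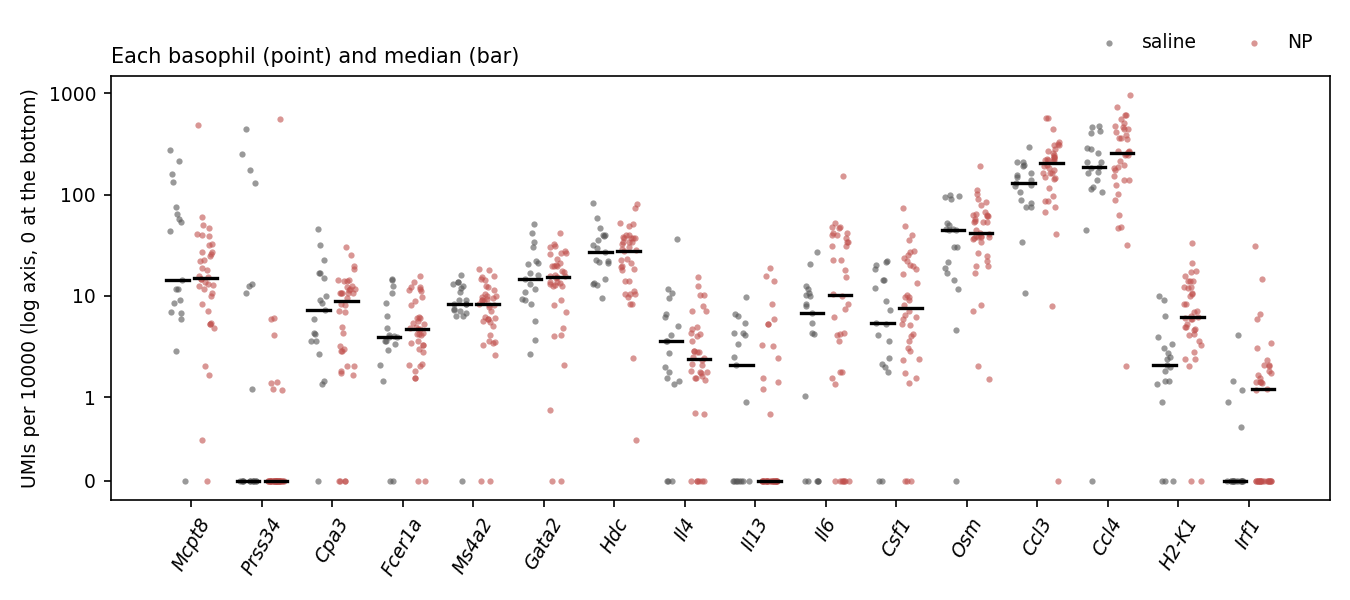
UMIs per 10000 of 16 genes in each of 19 saline (grey) and 38 NP (red) basophils, on a log axis with 0 at the bottom. Bars are medians over cells. Cells of both libraries overlap for Il6, H2-K1, Mcpt8 and Prss34, and the H2-K1 median was 2.08 in saline and 6.20 in NP basophils.

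The comparison of NP with saline basophils used UMIs pooled over the cells of a library and scaled to 10000. Over 2574 measured genes the median log2 ratio was -0.01 and 49.2% lay above 0. The NP level was 2-fold or more above saline for 185 genes (7.19%) and 2-fold or more below for 112 genes (4.35%). Among 1070 genes with at least 50 UMIs, these were 35 (3.27%) and 21 (1.96%). Without the 6 cells that stood apart, 103 of 2078 genes (4.96%) were higher and 139 (6.69%) lower, so which direction held more genes rested on these cells.

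The granule proteases Prss34 and Mcpt8 were among the 10 lowest pooled ratios of genes with at least 50 UMIs. Prss34 had 1450 saline and 411 NP UMIs, or 102 and 14.9 per 10000, a log2 ratio of -2.78 (-2.94 to -2.62). Mcpt8 had 1281 and 853 UMIs, or 90.3 and 30.8 per 10000, a log2 ratio of -1.55 (-1.68 to -1.42). These UMIs lay in few cells. Of 19 saline basophils, 6 held at least 10 Prss34 UMIs (858, 276, 195, 98, 11 and 10), and of 38 NP basophils 1 did, with 399. These 7 cells held 1448 of the saline and 399 of the NP Prss34 UMIs. The same cells also carried 172 (saline) and 486 (NP) Mcpt8 UMIs per 10000.

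**Figure D3:**
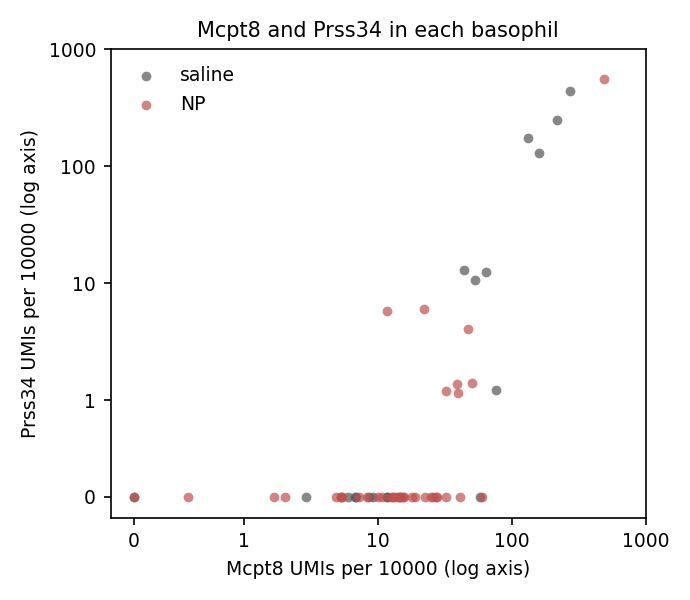
Mcpt8 against Prss34 in each basophil, both as UMIs per 10000 on log axes with 0 at the edge. Most cells of both libraries lie at a Prss34 level of 0, and the upper right holds 4 saline cells and 1 NP cell.

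In the other basophils, 13 saline and 37 NP cells, the Mcpt8 level was 19.7 and 18.7 per 10000, a log2 ratio of -0.08 (-0.34 to 0.20). The medians over all basophils were 14.4 and 15.1 per 10000. The 7 cells, picked after their values were seen, thus held most of the pooled Mcpt8 difference. The left-out barcodes bear on it. With the 2 NP barcodes that held a Cd3e UMI admitted, the log2 ratios were -0.92 for Mcpt8 (-1.03 to -0.81) and -1.49 for Prss34 (-1.602 to -1.37). With the 3 saline barcodes over 5000 genes admitted, Mcpt8 was at -1.54 and Prss34 at -2.90. These barcodes raise the saline total from 141830 to 252983 UMIs, and 2 of them hold only 4 and 6 UMIs of the rule genes, so a gene without UMIs in them gains 0.83 in log2 ratio from the total alone. Saline cell 1 alone held 858 Prss34, 535 Mcpt8, 90 Cpa3, 67 Ctsg, 32 Serpine2 and 11 Tyms UMIs, and without the deepest cell of each library Mcpt8 was at -0.84 and Prss34 at -1.56. Leaving out the 6 cells that stood apart gave -1.46 and -2.60.

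Other granule genes lay partly in the same cells. Cpa3 was at 13.1 and 8.90 per 10000 (log2 -0.56, -0.84 to -0.28), with medians over cells of 7.22 and 8.995. Without the 7 Prss34-rich cells its log2 ratio was 0.57 (0.10 to 1.06), the opposite sign. Ctsg, the cathepsin G gene, had 77 and 62 UMIs (-1.28), and 67 of the saline ones were in cell 1, so that it was at 0.93 without the deepest cell of each library or without its top cells. With the saline barcodes over 5000 genes admitted, Ctsg had 470 and 62 UMIs and was at -3.05 (-3.46 to -2.67). Of these, the barcode with 984 Mcpt8 UMIs held 247, and a barcode with 4 UMIs of the rule genes held 136. With the Cd3e barcodes admitted Ctsg was at -0.44 (-0.86 to -0.01). Hdc, which makes histamine, was at 26.6 and 25.8 per 10000 (-0.05, -0.23 to 0.14), and the proteoglycan Srgn, which packs granules, was at 62.0 and 62.4 (0.01, -0.11 to 0.13). Cd63, a granule membrane protein that reaches the surface on degranulation, was at 17.0 and 13.7 (-0.31, -0.55 to -0.07). Of 16 measured granule and secretion genes, 1 (Gzmb) was 2-fold higher and 3 (Prss34, Mcpt8 and Ctsg) were 2-fold lower, with the change of sign in Ctsg given above and a median of -0.25. The summed list was at -0.82 (-0.88 to -0.76), and without the deepest cells at -0.29.

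Gzmb, a cytotoxic granule protease, had 11 saline and 435 NP UMIs (log2 4.34, 3.49 to 5.36), and NP cell 2 held 365 of these. Without the 6 cells that stood apart it was still higher, with 11 and 70 UMIs (1.89, 0.96 to 2.96), in 3 of 19 saline and 11 of 38 NP basophils before they were removed.

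Genes of the IgE receptor pathway had a median log2 ratio of -0.32. Fcer1a was at 6.70 and 5.14 per 10000 (-0.38, -0.77 to 0.01), Ms4a2 at 9.87 and 7.70 (-0.36, -0.67 to -0.04), and Fcer1g, the signaling γ chain, at 23.2 and 18.8 (-0.31, -0.51 to -0.10). With the 6 cells left out their ratios were -0.19, -0.21 and -0.06, each with an interval that includes 0. Without the 7 Prss34-rich cells Fcer1a was at 0.54 (-0.06 to 1.19), the opposite sign, and Ms4a2 at -0.33 (-0.72 to 0.08). Of 14 measured genes of the pathway, 0 were 2-fold higher and 1 was 2-fold lower. This was Lat, an adaptor of the receptor complex, with 24 and 22 UMIs (-1.09, -1.99 to -0.19). The kinases Lyn and Syk had 10 and 25, and 7 and 14, UMIs, too few to show a difference. The surface gene Cd200r3 was at -0.13 (-0.47 to 0.21) and Gata2 at -0.15 (-0.38 to 0.09). Of 12 measured lineage transcription factors, 3 (Runx3, Id2 and Nr4a1) were 2-fold higher and 0 lower, with a median of 0.11 and a sum at 0.17 (0.09 to 0.25). Runx3 (4 and 18 UMIs) and Id2 (2 and 31) were scarce. Leaving out the 6 cells, 1 of 10 measured factors (Nr4a1) was 2-fold higher, Id2 had 2 and 5 UMIs, and the sum was at 0.43 (0.34 to 0.52).

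Il4, which drives type 2 responses, had 81 saline and 87 NP UMIs, or 5.71 and 3.15 per 10000 (-0.86, -1.31 to -0.41). It was detected in 16 of 19 and 32 of 38 basophils, and 30 of the saline UMIs lay in 1 cell. Without the cell with most Il4 in each library the ratio was -0.42 (-0.95 to 0.12). It was -0.71 (-1.17 to -0.25) without the 6 cells, -0.96 (-1.41 to -0.51) with the Cd3e barcodes admitted and -1.32 (-1.82 to -0.82) without the 7 Prss34-rich cells. With the saline barcodes over 5000 genes admitted, which enlarge the saline total as given above, it had 91 and 87 UMIs and was at -0.19 (-0.63 to 0.25). After thinning to 1000 UMIs, 38.9% of saline (17.3% to 64.3%) and 26.3% of NP basophils (13.4% to 43.1%) held an Il4 UMI, while 0 B cells did. Thinned to 2000 UMIs, the basophil shares were 52.9% (27.8% to 77.0%) and 47.4% (31.0% to 64.2%). Il13 had 38 and 62 UMIs (-0.26, -0.86 to 0.37), in 11 saline and 14 NP basophils. Its thinned shares changed order with depth, at 5.56% and 18.4% for 1000 UMIs and 52.9% and 21.1% for 2000 UMIs.

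Il6 had 110 saline and 523 NP UMIs, or 7.76 and 18.9 per 10000, a log2 ratio of 1.29 (0.987 to 1.596). In saline basophils it ranged from 0 to 26.8 per 10000 with a median of 6.76, and in NP basophils from 0 to 153 with a median of 10.2. The cells of both libraries overlapped, 14 of 19 and 31 of 38 held a UMI, and the highest NP cell held 78 UMIs. Thinned to 1000 UMIs, 38.9% of saline and 55.3% of NP basophils held an Il6 UMI. Thinned to 2000 UMIs, these shares were 70.6% and 68.4%. Without the highest cell of each library the ratio was 1.30, and without the 6 cells that stood apart it was 1.44 (1.139 to 1.75). B cells held 3 and 1 Il6 UMIs. In cells with Csf1r and Lyz2, mostly monocytes and macrophages, its level was 0.0445 and 0.0676 UMIs per 10000.

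The chemokines Ccl3 and Ccl4, which recruit monocytes and lymphocytes, had the most UMIs of the cytokine list. Ccl3 was at 125 saline and 186 NP UMIs per 10000 (0.57, 0.50 to 0.65), with medians over cells of 130 and 205. Ccl4 was at 209 and 272 (0.38, 0.32 to 0.44), with medians of 187 and 257. The 57 basophils, which were 0.219% of saline and 0.456% of NP cells, held 34.8% and 43.7% of all Ccl3 UMIs and 24.8% and 36.3% of all Ccl4 UMIs. Csf1, a growth factor of macrophages, was at 8.25 and 11.8 per 10000 (0.52, 0.21 to 0.84), and Osm (oncostatin M) at 35.2 and 43.5 (0.31, 0.15 to 0.46). Hgf, a growth factor of epithelium and vessels, was lower at 4.65 and 2.71 (-0.78, -1.28 to -0.28), and Ccl6 was at 66.8 and 53.7 (-0.32, -0.43 to -0.20). With the 6 cells left out, Ccl6 was at -0.03 (-0.15 to 0.10).

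Il1b had 137 UMIs in each library (-0.96, -1.32 to -0.61), and 102 of the saline ones were in 1 cell. It turned to 1.19 (0.64 to 1.77) without the 6 cells. Cxcl2, a neutrophil chemokine, had 7 and 53 UMIs (1.96), of which 41 were in 1 NP cell. Without the top cell of each library 2 and 12 UMIs were left. Of 14 measured cytokine and growth factor genes, 2 (Il6 and Cxcl2) were 2-fold higher and 0 lower, the median was 0.02, and the list sum was at 0.31 (0.27 to 0.35). Csf2 and Il10 had 0 UMIs.

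Of 13 measured cytokine receptors and 26 measured surface and adhesion genes, 0 were past 2-fold in either direction. Their sums were at 0.04 (-0.14 to 0.22) and 0.07 (-0.02 to 0.16), with medians of 0.04 and -0.13. Csf2rb, the β chain shared by the IL-3, IL-5 and GM-CSF receptors, was at 8.32 and 7.88 per 10000 (-0.08, -0.41 to 0.26), while the IL-3 specific β chain Csf2rb2 was at 2.82 and 4.67 (0.73, 0.20 to 1.28). The IL-18 receptor genes Il18r1 and Il18rap were at -0.56 (-1.05 to -0.06) and 0.23 (-0.29 to 0.77), from 62 and 82 and from 45 and 103 UMIs, and the IL-33 receptor Il1rl1 had 14 and 23 UMIs. Cd69, an early activation marker, was at 15.2 and 25.4 per 10000 (0.74, 0.52 to 0.97), with medians over cells of 8.12 and 19.6. The integrins Itga2 and Itga2b had 9 and 17, and 23 and 35, UMIs, and the eotaxin receptor Ccr3 had 5 and 6. In the lipid mediator list, Alox5ap, which delivers arachidonate to 5-lipoxygenase, was at -0.32 (-0.54 to -0.11). The cyclooxygenase Ptgs2 was at 6.20 and 9.51 (0.62, 0.26 to 0.98), the leukotriene synthase Ltc4s had 0 UMIs, and the sum of the list was at -0.07 (-0.24 to 0.10), with 0 of 4 measured genes past 2-fold.

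MHC class I presents peptides to CD8+ T cells, and its chains H2-K1, B2m and H2-D1 were higher in NP basophils. The heavy chain H2-K1 (chr17:33996017-34000347) had 39 saline and 271 NP UMIs, or 2.75 and 9.80 per 10000, a log2 ratio of 1.83 (1.35 to 2.36). Saline cells ranged from 0 to 9.88 with a median of 2.08, and NP cells from 0 to 33.4 with a median of 6.20, so the ranges overlapped. B2m, the light chain, was at 6.63 and 15.4 (1.21, 0.89 to 1.55), with medians of 5.92 and 14.7. H2-D1 was at 31.8 and 55.1 (0.79, 0.64 to 0.95), with medians of 31.9 and 51.5. Without the 6 cells that stood apart, H2-K1 was at 1.80 (1.20 to 2.44), B2m at 0.99 (0.63 to 1.36) and H2-D1 at 0.93 (0.76 to 1.10). With the 3 saline barcodes over 5000 genes admitted, the saline UMIs of H2-K1 went from 39 to 151 and its ratio to 0.72 (0.42 to 1.01), while B2m was at 1.06 and H2-D1 at 1.03.

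The peptide transporter and loading genes were nearer to 0, with Tap1 at 7 and 18 UMIs (0.40), Tap2 at 13 and 25 (-0.02) and Tapbp at 27 and 41 (-0.36). The immunoproteasome subunit Psmb8 had 23 and 82 UMIs (0.87, 0.19 to 1.61). Of 15 measured genes of the class I list, 12 lay above 0, 4 (H2-K1, H2-Q7, B2m and Psmb9, the last with 7 and 31 UMIs and an interval of -0.03 to 2.61) were 2-fold higher and 0 lower. The list median was 0.57 and its sum was at 0.80 (0.69 to 0.91), or 0.78 (0.66 to 0.91) without the 6 cells, which left 1 gene past 2-fold. It was 0.54 with the saline barcodes over 5000 genes. H2-Q7 and other class I genes are near-identical copies, so their counts may be split among them.

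**Figure D4:**
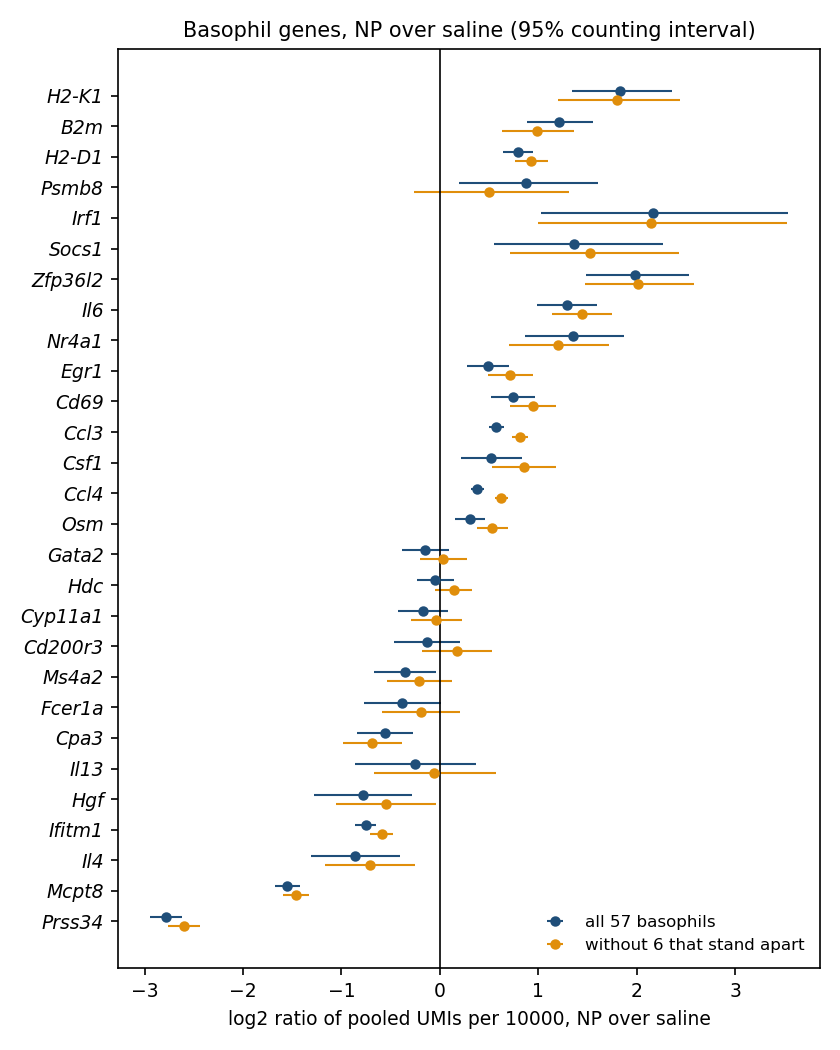
Log2 ratio of pooled UMIs per 10000, NP over saline, for 28 basophil genes, with all 57 basophils (blue) and without the 6 that stood apart (orange). Whiskers are exact 95% counting intervals, and H2-K1, B2m, H2-D1, Zfp36l2 and Il6 lie to the right of 0 in both sets while Mcpt8 and Prss34 lie to the left.

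Of the interferon-γ response list, 10 of 36 genes were measured. Of these 7 lay above 0, 4 (among them Irf1, Socs1 and Psmb9) were 2-fold higher and 0 lower, with a median of 0.64 and a sum of 190 and 562 UMIs (0.60, 0.36 to 0.85). Irf1, a transcription factor of the response, had 7 saline and 61 NP UMIs (2.16, 1.03 to 3.53), in 5 of 19 and 20 of 38 basophils. Socs1, its feedback inhibitor, had 15 and 75 (1.36, 0.55 to 2.27). The guanylate-binding protein genes were scarce, with 3 and 10 UMIs of Gbp2 and 0 of Gbp4, and Ifi47 had 0 and 15. The chemokines Cxcl9 and Cxcl10 had 0 UMIs. Psmb8, Psmb9, Tap1, Tap2 and Tapbp stand in this list and in the class I list, so the lists are not independent. With the 6 cells left out the sum was at 0.47 (0.20 to 0.73).

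The interferon-α list was lower in its sum (-0.54, -0.64 to -0.45) but not in its median of 0.04 over 7 measured genes. Ifitm1, a membrane protein that restricts viral entry, held 1310 of 1559 saline and 1515 of 2087 NP UMIs of the list. It was at 92.4 and 54.8 per 10000 (-0.75, -0.86 to -0.65), with medians over cells of 72.4 and 54.1. Without Ifitm1 the sum was at 0.24 (0.02 to 0.46). Antiviral genes such as Ifit1, Ifit3 and Usp18 had 0 UMIs, and Isg15 had 3 and 11.

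Among transcripts of activation and signaling feedback, Zfp36l2, an mRNA decay factor, had 36 saline and 278 NP UMIs (1.99, 1.48 to 2.53), with medians over cells of 2.44 and 6.98 per 10000. It was at 2.01 without the 6 cells. The immediate early genes Nr4a1 (42 and 209 UMIs, 1.35, 0.87 to 1.87) and Egr1 (243 and 664, 0.49, 0.27 to 0.71) were higher. Fosb (209 and 213, -0.94, -1.22 to -0.65) and Jund (386 and 586, -0.36) were lower, and Fos was at -0.12 (-0.29 to 0.05). These genes are also known to respond to tissue digestion. Of 17 measured dissociation stress genes, 3 (Nr4a1, Fosl2 and Hsp90ab1) were 2-fold higher and 0 lower, with a median of 0.195 and a sum at 0.07 (0.02 to 0.12). Of 16 measured genes of the TNF and NF-κB list, 4 (Cxcl2, Birc3, Traf1 and Plaur) were 2-fold higher and 0 lower, and the sum was at 0.12 (0.04 to 0.19), or 0.49 (0.40 to 0.57) without the 6 cells, where 6 of 15 measured genes were 2-fold higher and 2 lower. Nfkbia, an inhibitor of NF-κB, was at 34.3 and 39.9 per 10000 (0.22, 0.06 to 0.37). The part of tissue digestion in these differences was not tested.

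Of the 10 highest ratios among genes with at least 50 UMIs, with counts under 3 set to 3, 5 (Gzmb, Dusp2, S100a4, Ctla2a and Ly6a) rested mostly on NP cells 1 to 3. Dusp2 had 0 saline and 66 NP UMIs, all in 2 cells, and S100a4 had 1 and 61, of which 58 were in NP cell 1. Leaving out the 6 cells, Dusp2, S100a4, Ctla2a and Ly6a had at most 6 NP UMIs. Cxcl2 rested on 1 other NP cell, as given above. Zfp36l1, Irf1, Zfp36l2 and H2-K1 were 2-fold or more higher in both sets.

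Of the 10 lowest ratios, S100a8 (158 and 78 UMIs, -1.98) and S100a9 (266 and 107, -2.28) had 89 and 185 of their UMIs in saline cell 3, and without the 6 cells they were at -0.55 and -0.54. Serpine2 (38 and 12), Tmed3 (33 and 21) and Tuba1b (32 and 22) had 32, 18 and 28 of their saline UMIs in 1 cell each. Gm12840, a transcript of unassigned function, had 253 and 141 UMIs (-1.81, -2.11 to -1.50) in 6 saline and 10 NP basophils. Myadm had 38 and 27 UMIs (-1.46). Wfdc17 had 31 and 23 (-1.39), of which 22 saline UMIs were in 1 cell. It was at 0.0278 without the 6 cells, 0.27 with an S100 limit of 2% and 0.56 after subtraction of free RNA.

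Few other lists were measurable at this depth. Of the class II presentation genes, which present peptides to CD4+ T cells, only H2-Oa reached 20 UMIs (21 and 4, -3.36, -5.36 to -1.79), Cd74 had 6 and 4, and H2-Ab1 had 1 and 8. The list sum was 33 and 36 UMIs (-0.84, -1.56 to -0.11), and without H2-Oa it was at 0.45 (-0.54 to 1.54). Cell cycle genes summed to 111 and 105 UMIs (-1.04, -1.44 to -0.65), but 96 of the saline UMIs were in cell 1, and without the top cells the ratio was 1.11. Leaving out the 6 cells that stood apart, which keeps saline cell 1, gave -2.44. Of 5 measured survival genes, 1 (Cish) was 2-fold higher and 0 lower. Mcl1 was at 10.4 and 8.35 per 10000 (-0.32, -0.62 to -0.01) and Pim1 at 17.8 and 14.0 (-0.34, -0.58 to -0.11), and the sum was at -0.27 (-0.44 to -0.10). Leaving out the 6 cells, Mcl1 was at 0.13 (-0.21 to 0.48), Pim1 at -0.12 (-0.37 to 0.13) and the sum at -0.00072 (-0.19 to 0.19). Endothelial markers summed to 13 and 200 UMIs, 160 of them in NP cell 3, and neutrophil markers to 486 and 256, 291 of them in 1 saline cell. Markers of monocytes and macrophages (74 and 154 UMIs, led by Ccr2), T cells (44 and 63, led by Skap1), NK cells and ILC2 (86 and 168, led by Il13), platelets and erythroid cells (27 and 40, led by Itga2b), B cells (4 and 9), dendritic cells (0 and 10, of which NP cell 1 held 9) and epithelium (5 and 20) summed to few UMIs. Mast cell genes summed to 16 and 67 with 8 of 14 at 0, NP cell 2 held 30 and NP cell 1 held 7 of these, and without the 6 cells the sums were 15 and 30 (0.22, -0.72 to 1.22). Eosinophil genes summed to 40 and 58 with 5 of 12 at 0. The part of such RNA in the differences was not tested beyond the values without the 6 cells.

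The same lists were summed in 5 other classes of lung cells, defined by 3 or more UMIs over 2 or more marker genes or by the S100 share. The S100-rich class was that of 5404 saline and 3067 NP cells, which with the cells under 5% did not make up a whole library. The class I list was at 0.80 in basophils (0.69 to 0.91), against 0.67 in the S100-rich cells (0.66 to 0.68), 0.53 in Csf1r and Lyz2 cells (0.52 to 0.54), 0.35 in B cells (0.32 to 0.37), 0.14 in T cells (0.12 to 0.16) and 0.76 in endothelial cells (0.74 to 0.78). H2-K1 was higher in the NP library in all 6 classes, from 0.13 in T cells to 1.83 in basophils. The interferon-γ list was at 0.60 in basophils and from 0.34 in T cells to 1.40 in the S100-rich cells, with 36 of 36 genes measured in the latter. Ifitm1 was lower in the NP library in basophils (-0.75), the S100-rich cells (-0.56), Csf1r and Lyz2 cells (-0.71), endothelial cells (-0.70) and, with an interval that includes 0, B cells (-0.11), and higher in T cells (0.32). Zfp36l2 was at 0.83 in B cells, 0.37 in T cells and near 0 in the other 3 classes (0.06, -0.04 and -0.07), against 1.99 in basophils. With 1 library per group the differences between classes were not tested.

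**Figure D5:**
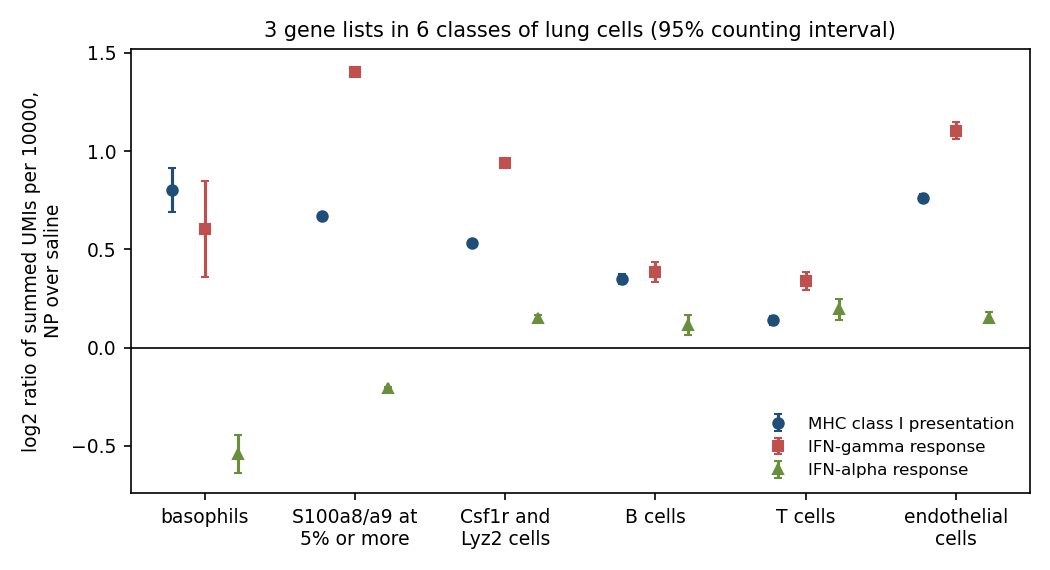
Log2 ratio of summed UMIs per 10000, NP over saline, for 3 gene lists in basophils and 5 other classes of lung cells. Whiskers are exact 95% counting intervals of 1 library per group, widest in basophils, and the class I list lies above 0 in all 6 classes.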

How the data were processed

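Lungs of saline- and NP-treated mice were sequenced on the 10x Chromium platform. According to the submitters' processing notes, reads were handled with bcl2fastq and Cell Ranger 6.0 on mm10, while the matrix header names Cell Ranger 4. The authors deposited raw UMI count matrices of 32285 genes, with 1778347 saline and 1757924 NP barcodes that hold a UMI, before any selection of cells. Counts were used as deposited.

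Basophils were found by the rule given above. The members and gene lists were chosen with earlier results of these data known. UMIs were pooled over the basophils of a library and scaled to their total. Ratios set counts under 3 to 3, shares carry Clopper-Pearson intervals, and ratios carry exact conditional binomial intervals. With 1 library per group no test was made, and PCR or sampling of mice adds error that intervals do not cover. Intervals of pooled ratios also leave out the spread between cells. Removal of few cells took Prss34, Cpa3 and Il1b outside theirs. Gene positions are from GENCODE vM21 (GRCm38), which held 99.6% of the gene identifiers.

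Genes named are the genes of the rule and Gata2, the measured members of the basophil lists (at least 20 UMIs), defining genes at any level, the 10 highest and 10 lowest ratios among genes with at least 50 UMIs, the 10 highest ratios against other cells, and, for other lists, the most abundant gene and members past 2-fold. Others, such as Tap1, Ifi47, Cxcl9, Mpo and those named at 0 or few UMIs, were chosen after their values were seen. Mx1 and Mx2 were 2 listed genes with no match. The value of a further listed gene is not reported here. Doublets were kept, and Scrublet (scanpy 1.11.5, anndata 0.12.19) called 1 of 8662 saline cells (0.0115%), where it has not worked, and 311 of 8333 NP cells (3.73%). The alternatives were other limits of the rule, equal weight per cell, other scaling, free RNA subtraction, other UMI minimums and single cells left out. Removal of the 6 cells that stood apart, of the deepest NP cell alone or of the 7 Prss34-rich cells, and admission of barcodes with Cd3e or Cd79a or over 5000 genes, were chosen after seeing the data. Intervals came from scipy 1.17.1 and tables from pandas 2.3.3 and numpy 2.4.6 under Python 3.11.15, with plots from matplotlib 3.10.9. The calculations were tested on simulated pooled counts. These held no separate cells, so the intervals were not tested for genes with most UMIs in few cells.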

Additional observations from a re-analysis of the deposited data

Results flagged for a closer look

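In 13 comparisons a gene list summed to a lower level in NP than in saline basophils while the same list summed to a higher level in another class, with intervals on opposite sides of 0. With 1 library per group the differences between classes were not tested. The MHC class II list was at -0.84 in basophils (33 and 36 UMIs) and positive in the S100-rich cells (1.65), Csf1r and Lyz2 cells (0.43), B cells (0.02), T cells (0.96) and endothelial cells (2.38). In basophils H2-Oa alone made the sum negative, and without it the list was at 0.45 (-0.54 to 1.54). The interferon-α list was at -0.54 in basophils, mostly Ifitm1, against 0.15 in Csf1r and Lyz2 cells, 0.11 in B cells, 0.19 in T cells and 0.15 in endothelial cells, and it was also lower in the S100-rich cells (-0.20). The cell cycle list was at -1.04, with 96 of 111 saline UMIs in 1 cell, against 0.56 in the S100-rich cells and 0.73 in T cells, and it was also lower in Csf1r and Lyz2 cells (-0.14) and B cells (-0.18). The survival list was at -0.27, against 0.18 in both the S100-rich cells and the Csf1r and Lyz2 cells, and it was also lower in endothelial cells (-0.28) and T cells (-0.10). Its basophil value was -0.00072 (-0.19 to 0.19) without the 6 cells that stood apart and -0.13 (-0.31 to 0.06) without the cell with most of its UMIs in each library.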

How the results depend on the processing

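With 1 library per group, values were compared with their counting intervals and no replicate could be left out. The share of basophils stayed within its interval under every alternative tried. Of the alternative values for shares, counts of genes and gene lists, 214 stayed within the interval or within 1.5 times the count, 55 moved and 2 reversed, and of those for single genes 2554 stayed, 172 moved and 21 reversed. The cause was not tested unless cells named hold the UMIs. All ratios are log2, NP over saline.

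Requiring 3 rule genes gave sums of -0.17 (IgE pathway), -0.70 (granule), 0.45 (cytokines), 0.18 (surface), 0.24 (TNF) and -1.62 (cell cycle). Requiring 5 UMIs, which removes the deepest NP cell alone, gave 0.28 (lineage factors), -0.70 (granule), 0.44 (cytokines), 0.19 (surface), 0.25 (TNF), 0.15 (stress) and -1.57 (cell cycle), and leaving out that cell, chosen after seeing the data, gave the same values. An S100 limit of 10% gave 172 genes 2-fold lower, -0.65 (granule), 0.42 (cytokines), 0.15 (stress) and 0.0898 for Jun, which reversed. A limit of 2% gave -0.89 (granule), 0.24 (TNF), and reversed Il1b (0.89) and Wfdc17 (0.27). Leaving out doublets gave 0.35 (cytokines) and reversed Ramp2 (-0.15). A minimum of 10 UMIs gave 349 genes higher and 314 lower, and of 50 UMIs 35 and 21. Equal weight per cell gave 191 genes lower, -0.45 (granule), 0.35 (cytokines), 0.36 (interferon-γ), 0.22 (TNF), 0.64 (class I) and -0.59 (cell cycle). Subtracting free RNA reversed Wfdc17 (0.56).

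Leaving out, for each gene or list, the cell with most of its UMIs gave -0.63 (granule), 0.20 (TNF) and 0.27 (stress), and reversed cell cycle (1.11), Ctsg (0.93), Il1b (0.37), Ramp2 (-0.22) and Tuba1b (1.06). Leaving out the deepest cell of each library gave -0.29 (granule), 0.26 (cytokines) and -0.64 (interferon-α), and reversed cell cycle (1.11), Cpa3 (0.33), Ctsg (0.93) and Tuba1b (1.06). Chosen after seeing the data, leaving out the 6 cells that stood apart gave 103 genes higher, 0.43 (lineage factors), -0.14 (IgE pathway), 0.17 (lipid mediators), 0.58 (cytokines), 0.30 (surface), 0.49 (TNF), 0.27 (stress), -2.44 (cell cycle) and -0.00072 (survival), and reversed Dusp1 (0.0397), Id2 (-0.0426), Il1b (1.19), Mcl1 (0.13), Ramp2 (-0.0426) and Wfdc17 (0.0278). Leaving out the 7 Prss34-rich cells, likewise chosen, put Cpa3 at 0.57, and Prss34 (0.17) and Ctsg (1.98) at values that rest on 2 saline UMIs each. For Prss34 the choice of cells fixed the loss, so nothing is read from it. Admitting barcodes over 5000 genes, likewise chosen, put the class I list at 0.54, with the enlarged saline total given above. Single genes moved too, with Ccl3 at 1.29, Ccl4 at 1.12 and Il6 at 1.93. Hdc (0.36), Gata2 (0.40), Cyp11a1 (0.46) and Cd200r3 (0.43) went from below 0 to above it, with intervals that exclude 0. The total alone adds 0.83 to a gene without UMIs in these barcodes.

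No paired analysis was possible because each group was 1 library. The 19 and 38 cells limit the precision for genes under 20 UMIs. They also limit it for abundant genes with many of their UMIs in few cells, such as Prss34, Mcpt8 and Il1b.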

Other observations

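Of further transcripts, basophils held 12.8% of saline and 7.62% of NP Hgf UMIs, 7.27% and 9.09% of Ccl9 UMIs, 3.15% and 10.7% of Csf1 UMIs, and 1.49% and 4.16% of Osm UMIs. Of the Ptger3 UMIs, a prostaglandin E receptor gene, 6.10% and 33.3% were in basophils, from 13 and 27 UMIs. Of the Slc18a2 UMIs, the transporter that loads histamine into granules, 18.0% and 32.4% were, from 11 and 24 UMIs. These shares move with the share of basophils among the cells of a library.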
